A study of Mus musculus with 6 samples.

Results

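The genes described here are the adhesion receptors of the cadherin superfamily (the numbered cadherins, the protocadherins, Fat, Dachsous and the Celsr flamingo cadherins) together with the teneurins. They were picked by symbol, and 106 of the 24413 gene rows matched. No measured value entered that rule, but the group was chosen with earlier results of these data known. RNA-seq gave transcript levels for W-EGFP cells, which are interstitial cells of the fetal mouse testis from FLE-EGFP mice at E16.5, in which an enhancer active in fetal Leydig cells drives EGFP. Each sample held 10000 cells, kept for 1 hour with SAG at 0.5 µM, a small molecule that activates the Hedgehog transducer Smoothened, or with DMSO, the vehicle. There were 3 libraries per group. All cells of both groups came from the same reporter line and stage. The column names of both groups also carry "siCnt", which the labels do not explain, so it is not stated whether all cells had received a control siRNA.

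Cadherins are transmembrane proteins whose extracellular repeats bind calcium and join neighbouring cells. Classical cadherins of types I and II hold cells together through catenins, which link them to actin. Fat and Dachsous bind each other across cell borders and orient tissues, as do the Celsr proteins of the planar polarity pathway, and teneurins bind latrophilin and FLRT receptors. The clustered protocadherins are made from 3 gene arrays on chromosome 18: each Pcdha and Pcdhg gene has its own first exon spliced to constant exons that the whole array shares, whereas Pcdhb genes lack such constant exons and are in the main single exons.

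The deposited signal is CPM, multiplied by scaling factors. Values after ± are SD over n = 3 libraries, and a log2 difference is SAG minus DMSO of log2(signal + 1), with its standard error (SE), from limma with Benjamini-Hochberg adjustment over the 12550 genes whose mean signal reached 1. Genes with an adjusted p under 0.05 are called. Recovered reads per library ranged from 18486396 to 25491259 for DMSO and from 7694479 to 8804335 for SAG, so the SAG values are the less precise, and 3 reads, the limit that a count of 0 allows for counting error, are a signal of 0.124 to 0.169 in DMSO and of 0.318 to 0.385 with SAG. SAG replicate 3 stood apart, with Rn45s, a ribosomal RNA gene, taking up 1.67% of it and 0.326% to 0.360% of the others, and a summed signal of 6 fetal Leydig markers of 115.7, against 19.0 and 23 in the other SAG libraries and 32.3 to 33.3 in DMSO. Markers of interstitial progenitors were present (9 genes, summed signal 423 to 441 in DMSO and 921 to 1092 with SAG; 7 called higher and 1 lower), and so were those of smooth muscle, peritubular or vascular (8 genes, 20897 to 21839 and 13169 to 14484; 7 called lower). The summed signal of 7 germ cell, 7 macrophage, 7 Schwann cell and 6 erythroid markers stayed at or below 3.72 in every library. In bulk samples fewer cells of a type and less RNA per cell cannot be told apart, and the part of any cell type in the differences below was not tested.

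Promoter windows are printed for 4 members on which the results turn: Fat1 and Fat3, members of 1 family that moved in opposite directions, and Cdh10 and Tenm4, the members with the largest fall and the largest rise. Tenm4 has a further RefSeq window, not printed, whose start lies 40425 bases downstream of its GENCODE start. Each window holds 300 bases, from 250 before to 50 after a RefSeq start site on GRCm38.p6, 5′ to 3′ on the gene's strand. Capitals mark matches on either strand to CAGGTG (an E-box of the kind that Snail and Zeb repressors bind) or to CATTCC (the core of the site for TEAD factors).
Cdh10 chr15:18820079-18820378 (+): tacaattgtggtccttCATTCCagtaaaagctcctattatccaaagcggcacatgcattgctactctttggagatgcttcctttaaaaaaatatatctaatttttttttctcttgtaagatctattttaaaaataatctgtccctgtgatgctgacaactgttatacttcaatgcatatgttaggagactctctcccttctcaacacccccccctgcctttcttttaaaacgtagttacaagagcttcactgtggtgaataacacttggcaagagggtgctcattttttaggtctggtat
Fat1 chr8:44949958-44950257 (+): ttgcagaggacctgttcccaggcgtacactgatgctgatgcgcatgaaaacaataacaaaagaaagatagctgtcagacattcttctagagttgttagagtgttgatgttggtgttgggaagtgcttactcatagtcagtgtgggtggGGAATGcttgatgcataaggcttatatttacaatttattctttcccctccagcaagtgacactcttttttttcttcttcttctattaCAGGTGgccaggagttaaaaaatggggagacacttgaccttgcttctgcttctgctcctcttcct
Fat3 chr9:16502005-16502304 (-): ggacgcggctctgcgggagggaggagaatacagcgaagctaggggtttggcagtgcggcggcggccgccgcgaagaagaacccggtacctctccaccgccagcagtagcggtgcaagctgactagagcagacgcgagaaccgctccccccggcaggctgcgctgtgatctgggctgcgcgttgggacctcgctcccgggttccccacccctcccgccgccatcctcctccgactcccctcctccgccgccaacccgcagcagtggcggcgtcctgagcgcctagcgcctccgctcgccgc
Tenm4 chr7:96170994-96171293 (+): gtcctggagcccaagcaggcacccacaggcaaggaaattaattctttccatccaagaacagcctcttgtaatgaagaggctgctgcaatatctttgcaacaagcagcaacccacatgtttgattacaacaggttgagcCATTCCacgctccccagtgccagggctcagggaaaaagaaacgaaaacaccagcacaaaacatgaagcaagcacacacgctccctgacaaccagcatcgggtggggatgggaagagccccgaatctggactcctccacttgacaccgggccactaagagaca

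The RefSeq start of the Fat1 window lies 14761 bases downstream of the start of the gene in GENCODE M21, and that of Cdh10 1382 bases downstream. Both windows thus lie inside the annotated gene, and whether either acts as a promoter was not tested. The Fat3 start and the Tenm4 start printed lie upstream of theirs. RefSeq windows were found for 32 of the 106 members. Matches to GACCACCCA, the site of the Hedgehog effectors of the Gli family, were in 0 of these 32 and in 0.253% of all 32817 promoter windows. CAGGTG was in windows of 7 of the 32 members and in 20.2% of all windows, and CATTCC in 7 of the 32 and 14.7% of all windows. Fat1 held both, Cdh10 and the Tenm4 window printed held CATTCC, the further Tenm4 window held no match, and the window of Fat3, at 71.3% G and C, held neither.

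Of the 106 members, 77 passed the filter on low values, and 21 of these were called, 11 higher and 10 lower with SAG. Over all genes tested 29.6% were called, 12.9% higher and 16.6% lower, so the members' share of 27.3% lay near the background. The 77 include 37 rows of the Pcdha and Pcdhg arrays that share their reads, of which none was called. Among the other 40 tested members 21 were called, a share of 52.5%. Groups did not overlap for 34 of the 77, against 48% of all genes tested. The SAG libraries were the higher for 13 (21.2% of all genes) and the lower for 21 (26.8%). Among the other 40 the groups did not overlap for 23, with SAG higher for 13 and lower for 10. The median log2 difference of the 77 was -0.21, against -0.03 over all genes. The repeated Pcdha and Pcdhg rows weigh on that median, which was 0.37 for the other 40. Some of these 40 passed the filter only through their SAG level. Scaling each library by its total alone moved the median of all genes to 0.10 and that of the 77 members to -0.07. It left 12 members higher and 6 lower, against 19.7% and 10% of all genes.

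The members' counts in other settings stand beside the shares of all genes tested in the same setting. Without DMSO replicate 1 there were 8 members higher and 6 lower (7.41% and 8.71% of all genes tested), without DMSO replicate 2 again 8 and 6 (7.71% and 9.04%), and without DMSO replicate 3 there were 8 and 5 (7.18% and 8.65%). Without SAG replicate 1 they were 9 and 9 (12.2% and 15.6%), without SAG replicate 2 10 and 10 (11.2% and 15.2%), and without SAG replicate 3 15 and 10 (19.7% and 27%). With no filter on low values 12 were higher and 9 lower (8.81% and 10.8%), and at a minimum of 5 these were 6 and 10 (12.7% and 18.6%). DESeq2 called 15 higher and 10 lower (17% and 15.7%), and scaling without Rn45s 14 and 6 (20.2% and 9.99%).

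**Figure D1:**
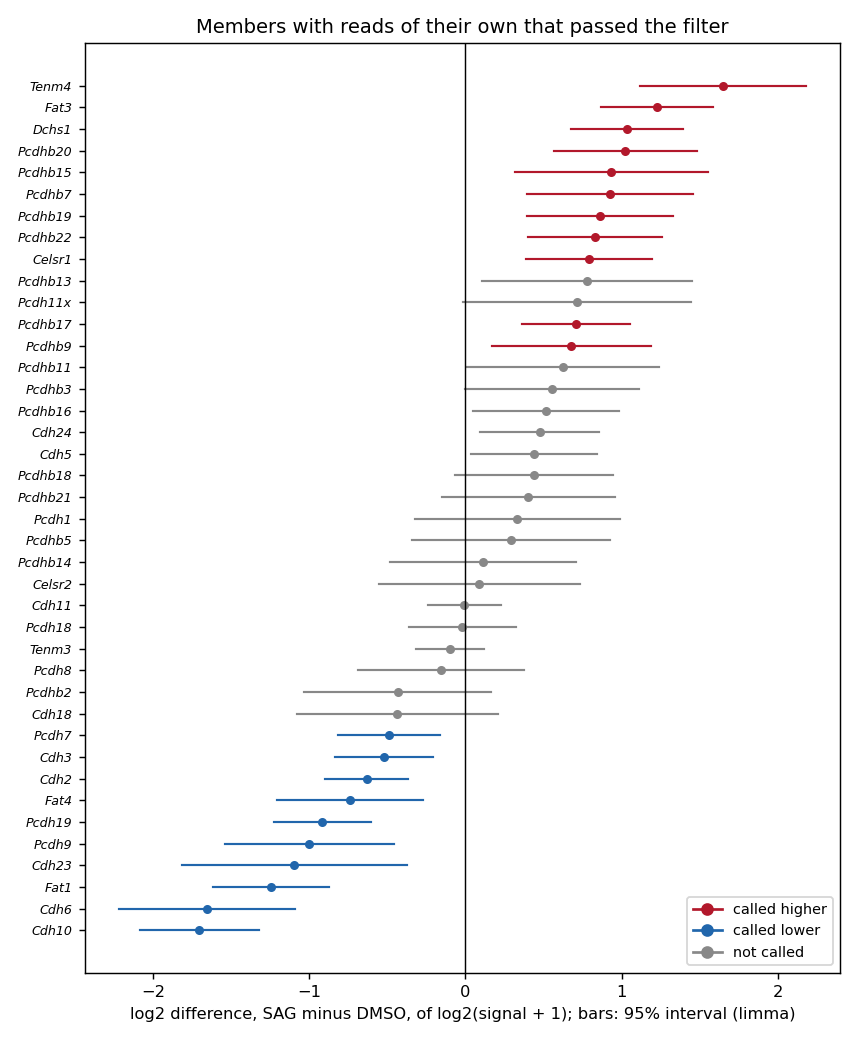
Log2 difference (SAG minus DMSO, horizontal axis) with its 95% interval from limma for the 40 tested members outside the Pcdha and Pcdhg arrays, ordered by size. Cdh10 at -1.70 and Cdh6 at -1.65 stand at the lower end and Tenm4 at 1.65 at the upper end; red marks the 11 called higher and blue the 10 called lower.

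The classical cadherins that differed were all lower with SAG. Of 18 classical members 8 passed the filter, and 4 of these fell: Cdh10, Cdh6, Cdh2 and Cdh3, beside 16.6% of all genes tested. None rose, beside 12.9% of all genes; Cdh24 and Cdh5 were higher at unadjusted limma p of 0.0199 and 0.0353, and edgeR called Cdh24 and DESeq2 both. Cdh11, the mesenchymal cadherin first found in osteoblasts, was not called. Expressed per kilobase of exon, which allows genes to be compared, the leading classical transcripts in DMSO were those of Cdh3 (76.7 ± 3.72), Cdh11 (47.0 ± 0.620) and Cdh2 (21.9 ± 0.794), well apart from Cdh5 (6.61 ± 0.750) and Cdh24 (4.66 ± 0.619).

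Cdh10, a type II cadherin known best from the nervous system, had signals of 14.2, 10.9 and 14.2 in DMSO replicates 1 to 3 and of 3.41, 3.07 and 3.47 with SAG. Every SAG library lay below every DMSO library, 3.96-fold on the means (log2 difference -1.70, SE 0.17; limma, Benjamini-Hochberg adjusted p = 1.48e-04). Cdh6, a type II cadherin of developing kidney epithelium, had signals of 27.7, 26.2 and 24.9 in DMSO and of 8.35, 11.3 and 4.62 with SAG. It was 3.24-fold lower (log2 difference -1.65, SE 0.25; adjusted p = 0.00144), with SAG replicate 3 lowest. On GRCm38 both genes lie on chromosome 15, Cdh6 at 13028701 to 13173675 (minus strand) and Cdh10 at 18818947 to 19014236 (plus strand).

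N-cadherin, Cdh2, the type I cadherin typical of mesenchyme, had signals of 178, 169.6 and 182 in DMSO and of 127, 119.8 and 96.1 with SAG. The groups did not overlap, and the gene fell 1.55-fold (log2 difference -0.63, SE 0.12; adjusted p = 0.00430). P-cadherin, Cdh3, had signals of 344, 347 and 318 in DMSO and of 239, 282 and 189 with SAG, a fall of 1.42-fold (log2 difference -0.52, SE 0.14; adjusted p = 0.0210). Its groups did not overlap either, but the limma call of Cdh3 was lost without DMSO replicate 1, 2 or 3 or SAG replicate 1 (Benjamini-Hochberg adjusted p = 0.0866, 0.0847, 0.0603 and 0.0507) and with scaling by library total (0.0907).

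Cdh11 had signals of 425, 414 and 417 in DMSO and of 447, 441 and 366 with SAG, so that 2 SAG libraries lay above the DMSO range and 1 below it. Its log2 difference was -0.01, with a 95% interval from -0.24 to 0.23. Of the summed classical cadherin signal per kilobase, Cdh11 made up 29.1% ± 0.506 in DMSO and 35.6% ± 2.13 with SAG, and Cdh3 47.5% ± 1.54 and 40.6% ± 2.29, while the sum itself went from 162 ± 2.75 to 133 ± 19.9. The share of Cdh11 was higher in every SAG library and that of Cdh3 lower. An exact permutation test (two-sided) gave p = 0.1 for each of these values, which is the lowest p that 3 libraries against 3 allow.

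VE-cadherin, Cdh5, the junctional cadherin of endothelium, had signals of 25.1, 26.9 and 31.2 in DMSO and of 43.8, 43.6 and 28.3 with SAG. The groups overlapped through SAG replicate 3, and the difference was not called (log2 difference 0.44, SE 0.18; limma, Benjamini-Hochberg adjusted p = 0.0930); without SAG replicate 3 it was called higher (0.64; 4.63e-05). Its level stood beside little signal from other endothelial genes: the 10 markers summed to 10.4 to 11.4 in DMSO and 9.64 to 10.9 with SAG, with the tight junction gene Cldn5 and Sox17 at 0 reads in all libraries and Pecam1 at a signal of at most 0.642. Of the 10 markers 3 passed the filter, and limma called none of these 3, of which Emcn was lower at an unadjusted p of 0.0337. Cdh24, a type II cadherin, had a mean signal of 16.3 ± 2.16 in DMSO and 23.1 ± 4.60 with SAG and was not called (adjusted p = 0.0613), and without SAG replicate 1 or 3 it was.

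E-cadherin, Cdh1, the type I cadherin of epithelia, had 2, 2 and 0 reads in the DMSO libraries and 0 in each SAG library. Cdh15 (M-cadherin of muscle), Cdh16, Cdh22, Cdh7 and Cdh19, which marks Schwann cell precursors, had 0 reads in all 6 libraries, and Cdh8, Cdh9, Cdh12, Cdh20 and Cdh4 had at most 4 in any. Cdh23, an unusually long cadherin of the tip links of hair cells, had signals of 6.79, 8.60 and 6.15 in DMSO and of 4.17, 3.92 and 1.16 with SAG. The groups did not overlap, and the log2 difference was -1.09 (SE 0.32; limma, Benjamini-Hochberg adjusted p = 0.0303), a call that was lost without DMSO replicate 1, 2 or 3 (0.0864, 0.114 and 0.0689), with no filter (0.0628) and when libraries were scaled by their totals (0.0538). T-cadherin, Cdh13, anchored to the membrane by a lipid, was under the filter: its DMSO libraries had 35, 15 and 21 reads and its SAG libraries 3, 4 and 0. Cdh17 was under it too, at 22, 26 and 20 and then 6, 4 and 3. Both were called lower when no filter was used.

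**Figure D2:**
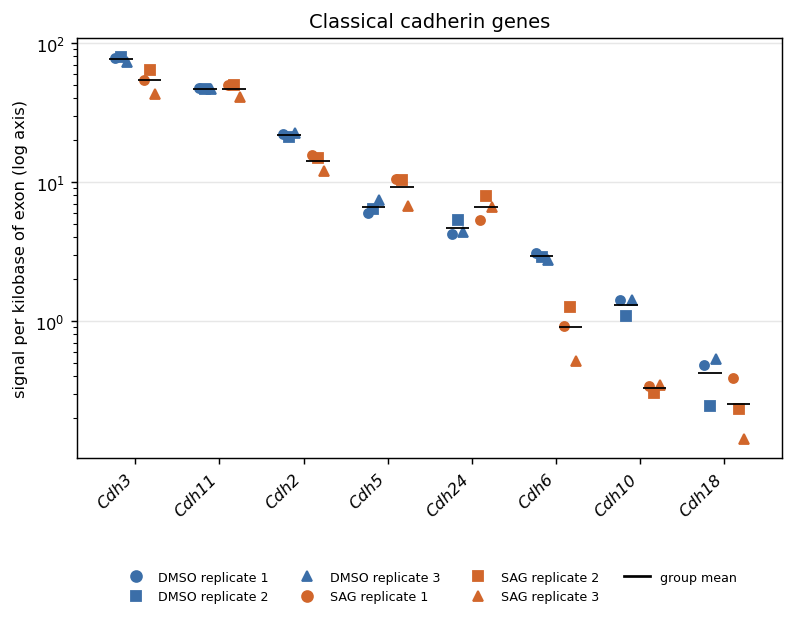
Signal per kilobase of exon (log axis) of the 8 classical cadherin genes that passed the filter, in each of the 3 DMSO and 3 SAG libraries, with black bars for group means. Cdh3, Cdh11 and Cdh2 lead; the SAG points of Cdh6 and Cdh10 lie well below their DMSO points, whereas those of Cdh11 lie around them.

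In the Fat and Dachsous family all 4 tested members were called, with Fat1 and Fat4 lower and Dchs1 and Fat3 higher. Over all genes tested 16.6% were called lower and 12.9% higher. The call of Fat4 was the least firm of these and was lost in several settings. Fat1, a giant cadherin that binds actin regulators and restrains YAP, stood at 78.3 ± 0.917 per kilobase in DMSO, above Cdh3 by less than the SD of the latter. With SAG it stood at 33.8 ± 8.18, below both Cdh3 (54.0 ± 10.7) and Cdh11 (47.0 ± 5.06). Its signals were 1211, 1239 and 1228 in DMSO and 580.2, 624 and 383 with SAG. The fall was 2.32-fold (log2 difference -1.24, SE 0.17; limma, Benjamini-Hochberg adjusted p = 7.87e-04), and no SAG library came near the DMSO range. The gene lies on chromosome 8 at 44935447 to 45052257 (plus strand).

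Fat3, a relative of Fat1 with roles in neurons, had signals of 5.59, 6.33 and 5.02 in DMSO and of 14.6, 16.2 and 12.8 with SAG. It rose 2.58-fold (log2 difference 1.23, SE 0.16; adjusted p = 6.92e-04), all SAG libraries lying above all DMSO libraries. Per kilobase Fat3 stayed far below Fat1, at 0.336% ± 0.0373 of its level in DMSO and 2.06% ± 0.335 with SAG. Fat2 had 2 reads in SAG replicate 2 and 0 elsewhere.

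Dchs1 and Fat4 encode a ligand and receptor pair. Dchs1 had signals of 70.4, 61.8 and 66.7 in DMSO and of 133, 176 and 109 with SAG. It rose 2.10-fold (log2 difference 1.03, SE 0.16; limma, Benjamini-Hochberg adjusted p = 0.00163), and its groups did not overlap. Fat4 had signals of 73.0, 79.6 and 102 in DMSO and of 59.6, 59.5 and 35.1 with SAG. It fell 1.65-fold (log2 difference -0.74, SE 0.21; adjusted p = 0.0259), a call that was lost without DMSO replicate 2 or 3 (0.0683 and 0.115), with no filter (0.0505) and when libraries were scaled by their totals (0.0734). The ratio of Dchs1 to Fat4, both per kilobase, was 1.5, 1.21 and 1.02 in DMSO and 3.46, 4.59 and 4.85 with SAG. Every SAG library thus had a higher ratio than every DMSO library (exact two-sided permutation p = 0.1, the smallest possible). Dchs1 lies on chromosome 7 at 105752990 to 105787654 (minus strand) and Fat4 on chromosome 3 at 38886940 to 39011985 (plus strand).

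Among the flamingo cadherins Celsr1 rose, from signals of 2.94, 3.24 and 2.88 to 5.49, 5.40 and 7.06 (1.98-fold; log2 difference 0.79, SE 0.18; adjusted p = 0.0105). The groups did not overlap. Celsr2, at 1.27 ± 0.605 in DMSO and 1.41 ± 0.580 with SAG, was not called (95% interval of the log2 difference -0.55 to 0.73), and Celsr3 had at most 13 reads.

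Among the teneurins, type II transmembrane proteins that pair cells across synapses, the minor member rose and the leading one was not called. Tenm4 had signals of 4.27, 5.36 and 4.85 in DMSO and of 13.6, 26.1 and 14.3 with SAG. It rose 3.73-fold (log2 difference 1.65, SE 0.24; limma, Benjamini-Hochberg adjusted p = 0.00113), with SAG replicate 2 highest and no overlap between the groups. Tenm3 had signals of 109, 102 and 97.3 in DMSO and of 91.9, 99.7 and 95.3 with SAG, which overlap (log2 difference -0.10, 95% interval -0.32 to 0.12). Per kilobase Tenm4 made up 2.30% ± 0.345 of the Tenm3 level in DMSO and 9.08% ± 3.16 with SAG. Tenm2 had at most 6 reads and Tenm1 at most 3. Tenm4 lies on chromosome 7 at 96171246 to 96911093 (plus strand).

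**Figure D3:**
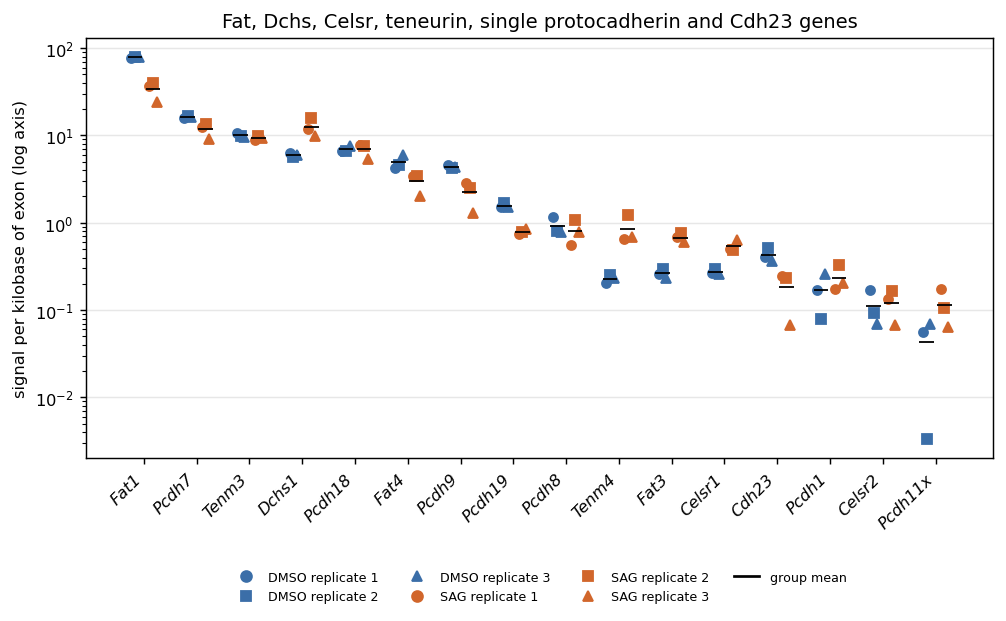
Signal per kilobase of exon (log axis) of the 16 tested Fat, Dchs, Celsr, teneurin, single protocadherin and Cdh23 genes, in each library, with black bars for group means. Fat1 leads in both groups with its SAG points below its DMSO points, Dchs1 and Fat4 part in opposite directions, and Tenm4 and Fat3 rise from low levels.

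Single protocadherin genes, which sit outside the arrays and include the delta protocadherins, fell where they were called. Of 12 such members 7 passed the filter, and Pcdh7, Pcdh9 and Pcdh19 fell and none rose, beside 16.6% lower and 12.9% higher of all genes. Pcdh11x passed only through its SAG level and was not called. Pcdh19, a delta protocadherin that partners N-cadherin, had signals of 16.0, 17.5 and 15.9 in DMSO and of 7.69, 8.16 and 8.99 with SAG (1.99-fold lower; log2 difference -0.92, SE 0.14; limma, Benjamini-Hochberg adjusted p = 0.00147). The groups stood clear of each other, and SAG replicate 3 was the highest of its group here. Pcdh9 had signals of 30.9, 29.0 and 29.6 in DMSO and of 19.6, 17.1 and 8.86 with SAG (1.97-fold lower; adjusted p = 0.0134, and 0.0561 and 0.0506 without DMSO replicates 1 and 3). Pcdh7, the most abundant of the kind, had signals of 169, 176 and 173 in DMSO and of 134, 144 and 95.9 with SAG (1.39-fold lower; adjusted p = 0.0316). The call of Pcdh7 was lost without DMSO replicate 1, 2 or 3 (limma, Benjamini-Hochberg adjusted p = 0.0967, 0.108 and 0.106), with limma without trend (0.0618), with no filter (0.0519) and with scaling by library total (0.133). Pcdh18, at 37.3 ± 2.66 and 37.2 ± 7.09, had a log2 difference of -0.02 with a 95% interval from -0.36 to 0.32.

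The Pcdhb array, whose 22 genes lie next to each other on chromosome 18, had members that rose and none that fell. Of 16 genes that passed the filter 7 rose, Pcdhb7, Pcdhb9, Pcdhb15, Pcdhb17, Pcdhb19, Pcdhb20 and Pcdhb22, against 12.9% of all genes tested. A log2 difference above 0 was found for 15 of the 16, with a median of 0.65. Pcdhb9, Pcdhb11, Pcdhb13 and Pcdhb15 had a mean signal under 1 in DMSO and passed the filter only through their SAG level, so these counts describe the genes that passed and not the whole array.

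Pcdhb17 was the most abundant, with signals of 10.5, 8.46 and 11.3 in DMSO and of 17.2, 15.5 and 18.4 with SAG (1.69-fold higher; log2 difference 0.71, SE 0.15; limma, Benjamini-Hochberg adjusted p = 0.00827). Its SAG libraries all lay above its DMSO libraries. Pcdhb20 had signals of 3.11, 2.96 and 4.51 in DMSO and of 6.81, 9.75 and 7.96 with SAG (2.32-fold higher; adjusted p = 0.00560), and Pcdhb22 of 5.80, 5.92 and 3.67 and then 9.89, 9.11 and 10.1 (1.89-fold higher; adjusted p = 0.0111). These 3 stayed called with each library left out in turn. Pcdhb19 rose 2.16-fold, Pcdhb7 2.76-fold, Pcdhb15 3.06-fold and Pcdhb9 2.47-fold, with no overlap between the groups for any of them. Their calls were less firm: Pcdhb19 was not called without DMSO replicate 3 (limma, Benjamini-Hochberg adjusted p = 0.0652), Pcdhb7 without DMSO replicate 1 or 2 or SAG replicate 1 (0.0510 to 0.0820), Pcdhb15 without DMSO replicate 1, 2 or 3 or SAG replicate 1 (0.0576 to 0.114) and Pcdhb9 without any 1 of the 6 libraries (0.0508 to 0.159). With DMSO reads thinned to the SAG depth, Pcdhb15 and Pcdhb9 were not called either (limma, Benjamini-Hochberg adjusted p = 0.0511 and 0.157). Pcdhb2, the 1 tested gene below 0, had signals of 1.55 ± 0.512 in DMSO and 0.893 ± 0.404 with SAG and was not called.

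The annotation holds spliced transcripts of some Pcdhb genes, Pcdhb22 among them. Beside the Pcdhb values stand those of other genes with 1 annotated exon. Among 189 other tested protein-coding genes with 1 annotated exon, 24.9% were called higher, and their median log2 difference was 0.18. Whether a property of such genes in these libraries has a part in the Pcdhb values was not tested. The Pcdhb genes are alike. For every gene of the array but Pcdhb1, between 1.5% (Pcdhb14) and 12% (Pcdhb12) of the words of 50 bases in its transcripts also occur in another Pcdhb gene. Pcdhb21 and Pcdhb22 overlap by 455 bases. Reads in such stretches may not be assigned to the right gene.

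**Figure D4:**
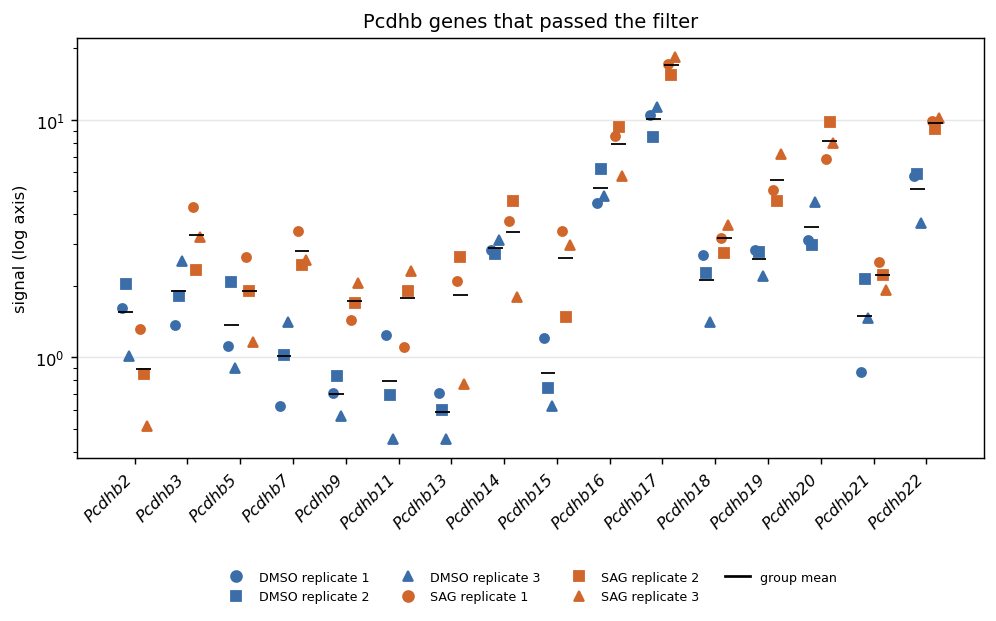
Signal (log axis) of the 16 Pcdhb genes that passed the filter, ordered by number, in each of the 3 DMSO and 3 SAG libraries, with black bars for group means. The SAG means lie above the DMSO means for 15 of them, with Pcdhb2 the exception.

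The Pcdha and Pcdhg rows cannot be read as separate genes. The 22 Pcdhg rows and a row named Pcdha7-g held nearly the same reads: apart from Pcdhgc3, the highest row exceeded the lowest by at most 5.54% in any library. In the same way 5 of the 14 Pcdha rows had identical reads in all 6 libraries. In GENCODE M21 the 22 Pcdhg genes share 2116 exonic bases in 3 blocks between 37825021 and 37841870 on chromosome 18, and the 12 Pcdha genes found there share 2860 bases in 3 blocks between 37156155 and 37187657. The sources used here do not give how reads in these shared exons were assigned.

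The lowest row of each array was therefore taken as its shared reads, and what each row had above that as its own, a choice made after the values were seen. The shared Pcdhg signal was 257, 249.6 and 254 in DMSO and 249.7, 227 and 183 with SAG, so that SAG replicate 1 lay just above DMSO replicate 2 and the other SAG libraries below all DMSO libraries. The log2 difference was -0.22 (SE 0.12; limma, Benjamini-Hochberg adjusted p = 0.206), and this 1 value repeats through all the Pcdhg rows. Per kilobase of the shared exons it came to 119.9 ± 1.76 in DMSO and 104 ± 16.1 with SAG, above Fat1 and Cdh3 in both groups. That ranking is not like for like. The Pcdhg value pools the transcripts of an array and is divided by the 2116 shared bases alone. Those of Fat1 and Cdh3 are divided by all exons of 1 gene. The shared Pcdha signal was 1.89 ± 0.610 in DMSO and 1.42 ± 0.372 with SAG (adjusted p = 0.476).

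Of the Pcdhg genes, Pcdhgc3 carried most of the reads outside the shared part. Its own signal was 170.1, 173 and 166 in DMSO and 152, 163 and 108 with SAG (log2 difference -0.29, SE 0.15; limma, Benjamini-Hochberg adjusted p = 0.167). The own signals of the other Pcdhg genes had group means from 0.425 to 11.2. Among the 22 tested in this form 2 were called: Pcdhga10 fell from 11.2 ± 1.83 to 5.84 ± 1.28 (adjusted p = 0.0116) and Pcdhgb8, with at most 23 own reads in a library, rose from 0.425 ± 0.353 to 1.64 ± 0.697 (0.0453). Pcdhgb8 passed the filter only through its SAG level. Own reads of the 14 Pcdha genes were at most 18 in a library, and none of these genes passed the filter.

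**Figure D5:**
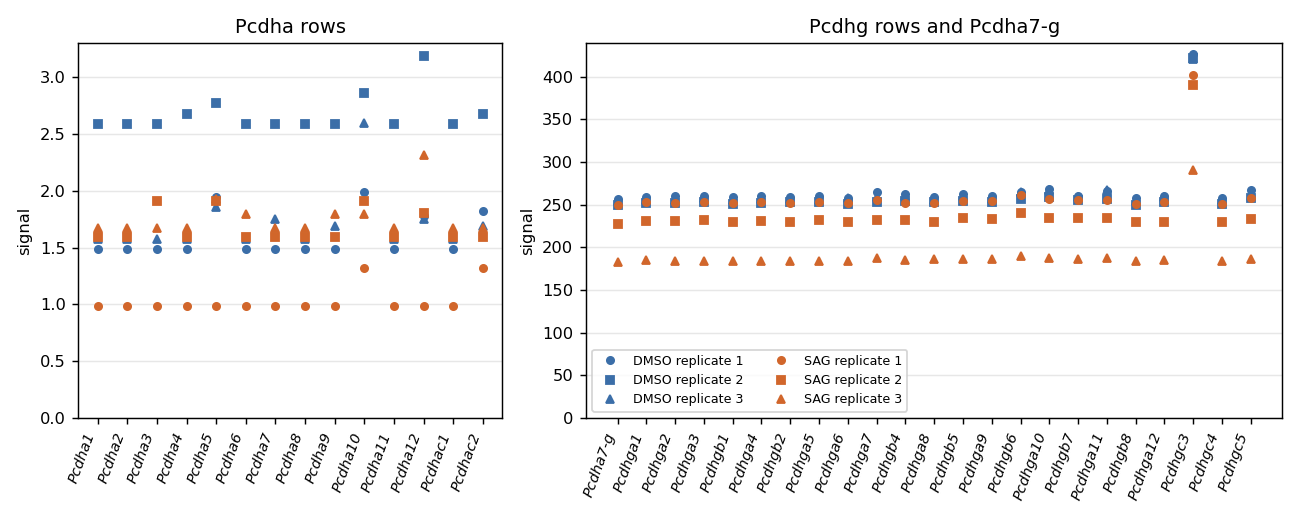
Signal (linear axes from 0) of the 14 Pcdha rows on the left and of the 22 Pcdhg rows with Pcdha7-g on the right, in each of the 6 libraries. The rows of an array run level, with nearly the same reads in each; Pcdhgc3 alone stands clear of the others, and SAG replicate 3 is lowest throughout the right panel.

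Catenins and other adaptors that tie cadherins to actin fell more often than they rose. Of 24 genes listed 18 are analysed here and 16 were tested, and 9 fell and 1 rose, beside 16.6% lower and 12.9% higher over all genes; the median log2 difference was -0.47. Vcl (vinculin, which bears force at the junction) had a mean signal of 1377 ± 35.7 in DMSO and was 2.19-fold lower with SAG, at 630.2 ± 57.6. Ctnnd1 (p120 catenin, which keeps cadherins at the surface) was 1.71-fold lower, at 498 ± 25.3 and 291 ± 20.6, and its neural relative Ctnnd2 4.17-fold lower, at 13.5 ± 2.64 and 3.25 ± 0.868. Pkp2 (plakophilin 2, a desmosomal protein) was 3.24-fold lower, at 83.7 ± 1.55 and 25.8 ± 4.38. The adjusted p from limma was at most 5.36e-04 for these 4.

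The shares over all genes, 12.9% higher and 16.6% lower, apply to the further lists too. Of 16 planar polarity and Fat effector genes 3 rose and 2 fell. Fzd6, a frizzled receptor of the polarity pathway, was 2.90-fold lower (24.3 ± 1.11 and 8.37 ± 2.61; limma, Benjamini-Hochberg adjusted p = 8.39e-04), and Prickle1 rose 1.82-fold (30.9 ± 0.717 to 56.0 ± 6.74; 0.00107). Fjx1, a relative of the kinase that tunes Fat and Dachsous binding in flies, was 1.42-fold lower (adjusted p = 0.0142), a call lost without DMSO replicate 1, 2 or 3 (0.0730, 0.0651 and 0.0516). Dvl2 rose 1.40-fold (0.0117), which was lost without DMSO replicate 2 or 3 (0.0579 and 0.0681).

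Among 9 tested genes for latrophilins, FLRT proteins and their Unc5 partners 2 fell and 1 rose, beside the same shares. Flrt2 was 4.37-fold lower, at 63.7 ± 0.557 and 14.6 ± 1.89, and Unc5d 3.60-fold lower, at 6.11 ± 0.771 and 1.70 ± 0.527. Unc5c rose 1.72-fold, from 7.46 ± 0.939 to 12.9 ± 1.35 (adjusted p = 0.00892, and 0.0506 without DMSO replicate 1). Unc5a, at 1.32 ± 0.0858 and 3.11 ± 1.33, was not called (limma, Benjamini-Hochberg adjusted p = 0.0526) and was called without SAG replicate 3 (0.00155).

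Genes that govern protocadherin choice or act below protocadherins included 2 that rose and 5 that fell of 16 tested, beside 12.9% and 16.6% of all genes. Ptk2b, the kinase Pyk2 that protocadherins inhibit, was 2.12-fold lower (24.9 ± 0.902 and 11.8 ± 2.14; adjusted p = 0.00119). Smchd1, a silencing protein that acts on the clustered protocadherins, was 1.45-fold lower (57.0 ± 2.70 and 39.4 ± 4.84; 0.0105), with the call lost without DMSO replicate 1 or 2 (0.0618 and 0.0530). Ptk2 and Nckap1 were 1.32-fold and 1.35-fold lower, and neither was called without any 1 DMSO library (limma, Benjamini-Hochberg adjusted p = 0.0566 to 0.0777) or with scaling by library total (0.0557 and 0.0760).

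Repressors of cadherin genes moved in both directions, with 3 higher and 1 lower of 8, beside 12.9% and 16.6% of all genes. Snai2 (Slug) rose 2.04-fold, from 18.4 ± 2.21 to 37.6 ± 6.37 (limma, Benjamini-Hochberg adjusted p = 0.00185), and Twist2 rose 10.6-fold, from 0.560 ± 0.441 to 5.92 ± 1.79 (8.58e-04). Twist2, with 18, 19 and 1 reads in DMSO, passed the filter only through its SAG level. Its log2 difference, with 1 added to each signal, was 2.16 (SE 0.30). Zeb2 was 1.35-fold lower and Twist1 1.32-fold higher (0.0328 and 0.0421); both calls were lost without DMSO replicate 1, 2 or 3 (0.0963 to 0.164), and that of Twist1 also without SAG replicate 2 (0.0741). Neither was called by limma without trend (0.0632 for Zeb2 and 0.0557 for Twist1) or with no filter (0.05001 and 0.0522). Zeb2 was not called with scaling by library total (0.150) or by edgeR (Benjamini-Hochberg adjusted p = 0.0508), nor Twist1 with thinned DMSO reads (0.0760). Of 4 tested genes of other cadherin relatives Clstn2 (calsyntenin 2) was 1.78-fold lower (0.0117, and 0.0527 and 0.0543 without DMSO replicates 1 and 3), whereas Clstn1, Ret and Dsg2 were not called.

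Exons of the called members Fat1, Fat4, Dchs1, Pcdh7, Tenm4 and Pcdh19 overlap an annotated gene of the opposite strand by 57 bases (Pcdh19) to 2235 bases (Pcdh7). The library kit keeps the strand, but whether the counting used it is not given in the sources used here.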

How the data were processed

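Per the labels' protocols, RNA came from RNeasy Micro columns and the NEBNext Ultra II Directional kit made the libraries. The submitters' processing notes name Trim Galore 0.6.4, featureCounts 2.0.0, STAR, edgeR (under version 2.2.1) and, as build, mm10 (GRCm38). Which annotation and strand setting were used and how reads in several genes were treated is not given in the sources used here. What the authors deposited is 1 table of normalized signal with 24505 rows. Column sums differ, so the signal is not plain CPM. Within 0.01, 100% of the values of every column were multiples of 1 step, from which whole reads were recovered. The 92 spike-in rows, at most 0.0157% of a library's reads, were left out.

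The test was limma 3.58.1 on log2(signal + 1) (trend) under R 4.3.3, in a model of group alone. Alternatives were a pseudocount of 0.25, no filter or a filter at 5, other scalings, no trend, a replicate block, thinned DMSO reads, each library left out, and 2 count tests of the recovered reads, edgeR's quasi-likelihood test (4.0.16) and DESeq2 (1.42.0), which called 23 and 25 members. On simulated counts for SAG against DMSO over 12465 genes, limma recovered 36.7% of 98 genes changed 1.5-fold and 77.6% of 98 changed 2-fold. False calls made up 6.67%. Far fewer genes were changed there than the 29.6% called in the data, and no simulated library was made to stand apart as SAG replicate 3 did. These rates may therefore not hold for the data. Lengths and positions are from GENCODE M21, which held 103 members once, and promoters from RefSeq. The members and lists were chosen with earlier results of these data known. Named genes were every called member, the member with the most signal per kilobase in each family, Cdh1, Cdh2, Cdh5, Cdh11, Fat4, Dchs1 and up to 4 genes with the smallest p in each partner list; other members are named after their values were seen. Lists of Sertoli, neuronal and surface epithelial markers were also read: 0 of 3 tested Sertoli, 1 of 1 neuronal (Tubb3) and 2 of 5 epithelial genes (Krt8 and Krt18) were called, the last 3 lower. Whether replicates were separate cultures or animals is not stated; the p-values therefore reflect only how these samples varied, which may be technical. Limits on reads cover counting error only, and the intervals from limma rest on the spread between libraries.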

Additional observations from a re-analysis of the deposited data

How the results depend on the processing

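Of the 21 called members, 12 kept their call in limma with each of the 6 libraries left out in turn (Cdh2, Cdh6, Cdh10, Celsr1, Dchs1, Fat1, Fat3, Pcdh19, Pcdhb17, Pcdhb20, Pcdhb22 and Tenm4), and 9 did not in at least 1 setting. With 1 library left out the members called ranged from 8 to 15 higher and from 5 to 10 lower, the median log2 difference of the members from -0.25 to -0.09, and the partner genes called from 4 to 17 higher and from 11 to 23 lower, against 10 and 20 with all libraries. Without SAG replicate 3 the counts of higher members and of partner genes were at their highest. Members called lower numbered 6 with scaling by library total and also 6 with scaling without Rn45s, which was added after seeing the data and put their median at -0.065. Members called higher numbered 6 with a minimum mean signal of 5, where fewer genes are tested, and partner genes called higher numbered 5 with no filter on low values. With the clustered protocadherins split into shared and own reads the median of the members was 0.15, since the repeated rows drop out. The log2 difference of Cdh11 changed sign with scaling by library total (0.13), scaling without Rn45s (0.14), edgeR (0.036), DESeq2 (0.037) and thinned DMSO reads (8.4e-04), and ranged from -0.058 to 0.085 with 1 library left out. That of Tenm3 was 0.039 and 0.046 in the 2 scalings, and that of Clstn1 ranged from -0.0021 to 0.087 with 1 library left out; none of these was called in any setting. The cause of the other changes was not tested. A replicate block left 11 members higher and 10 lower; replicate numbers did not pair the libraries (correlation of deviations -0.02, 0.03 and -0.0002 for pairs 1 to 3), not every SAG sample correlated best with its own number, and with the block Pcdhb9 and Twist1 were not called and Cdh24 was. SAG depth limits the low members, with at most 157 reads for any tested Pcdhb gene in a SAG library.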
